A study of Mus musculus with 3 samples.

Results

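The genes described are 50 components of the Wnt pathway, chosen by name: 19 Wnt ligands, 12 receptors (10 Frizzled genes with Lrp5 and Lrp6), 7 inhibitors, 8 intracellular components and 4 nuclear factors. Their peaks are those lines of the authors' shared peak list whose gene name equals a member's symbol, and there were 89 such peaks among 19979. Of the 50 genes, 44 carried at least 1 peak, which is called a linked peak here. The list comes from chromatin immunoprecipitation with a homemade antibody against the zinc finger factor Sp9, sequenced as 2 libraries (Sp9_OB_IP_1 and Sp9_OB_IP_2), with 1 input library made without antibody (Sp9_OB_Input). All of the material was olfactory bulb tissue of CD1 mice at postnatal day 0-2, with no mutant, treated or second-tissue group. The study asked how Sp9 and its relative Sp8 govern the development of olfactory bulb interneurons. The sources used here do not say whether bulbs of several animals were pooled or whether the immunoprecipitations used separate animals, and a peak list of whole bulb does not say in which cell type a site was bound.

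Wnt proteins are secreted, lipid-modified ligands that bind Frizzled receptors and, in the beta-catenin branch, the co-receptors Lrp5 and Lrp6. Binding recruits Dishevelled proteins (Dvl1 to Dvl3) and stops a destruction complex built on Axin, Apc and the kinase Gsk3b. Beta-catenin (Ctnnb1) then accumulates, enters the nucleus and acts there with the Tcf and Lef factors. Several genes that this branch switches on feed back on it, among them Axin2, Dkk1, Rnf43, Znrf3, Lef1 and Tcf7. In the forebrain, Wnt signals are known for patterning the dorsal telencephalon and for acting on neural progenitors. Sp factors bind GC-rich elements (GC boxes), and the relatives Sp5 and Sp8 have been described as partners of Wnt-dependent transcription in mouse embryos.

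Each line of the list gives a position in mouse build mm9, 1 score and 1 gene name. The score is the authors' own value, with no unit and no value per library, so no error between replicates exists for any peak and no test was run. It ran from 80.01 to 3139.09 over the list, with a median of 210.06, an upper quartile from 353.56 and a top 10% from 536.03. The number of reads per library is unknown from these values. A gene name says nothing of whether the site is a promoter, an intron or intergenic. Shares of genes carry exact Clopper-Pearson intervals (95%), which treat genes as independent and cover counting error only.

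Wnt pathway genes were named for Sp9 peaks in 44 of 50 cases (88%, interval 75.7 to 95.5%), and the share over all 21896 protein-coding genes was 53.2%. Peaks at or above the list's median score were linked to 37 members (74%, interval 59.7 to 85.4%), with 34.1% over all coding genes. Peaks in the upper quartile were linked to 22 members, with 18.5% over all coding genes. A peak in the top 10% was linked to 9 members, namely Axin2, Fzd7, Fzd8, Fzd1, Fzd5, Fzd9, Wnt9a, Wnt2b and Fzd3, with 7.61% over all coding genes. Among genes that had any peak these 9 of 44 members stand beside 14.3% of linked coding genes. The median of the highest score per gene was 360.31 over the 44 linked members and 274.08 over 11650 linked coding genes. The 6 members without a peak were Wnt8a, Wnt16, Fzd10, Dkk3, Rnf43 and Gsk3b.

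**Figure D1:**
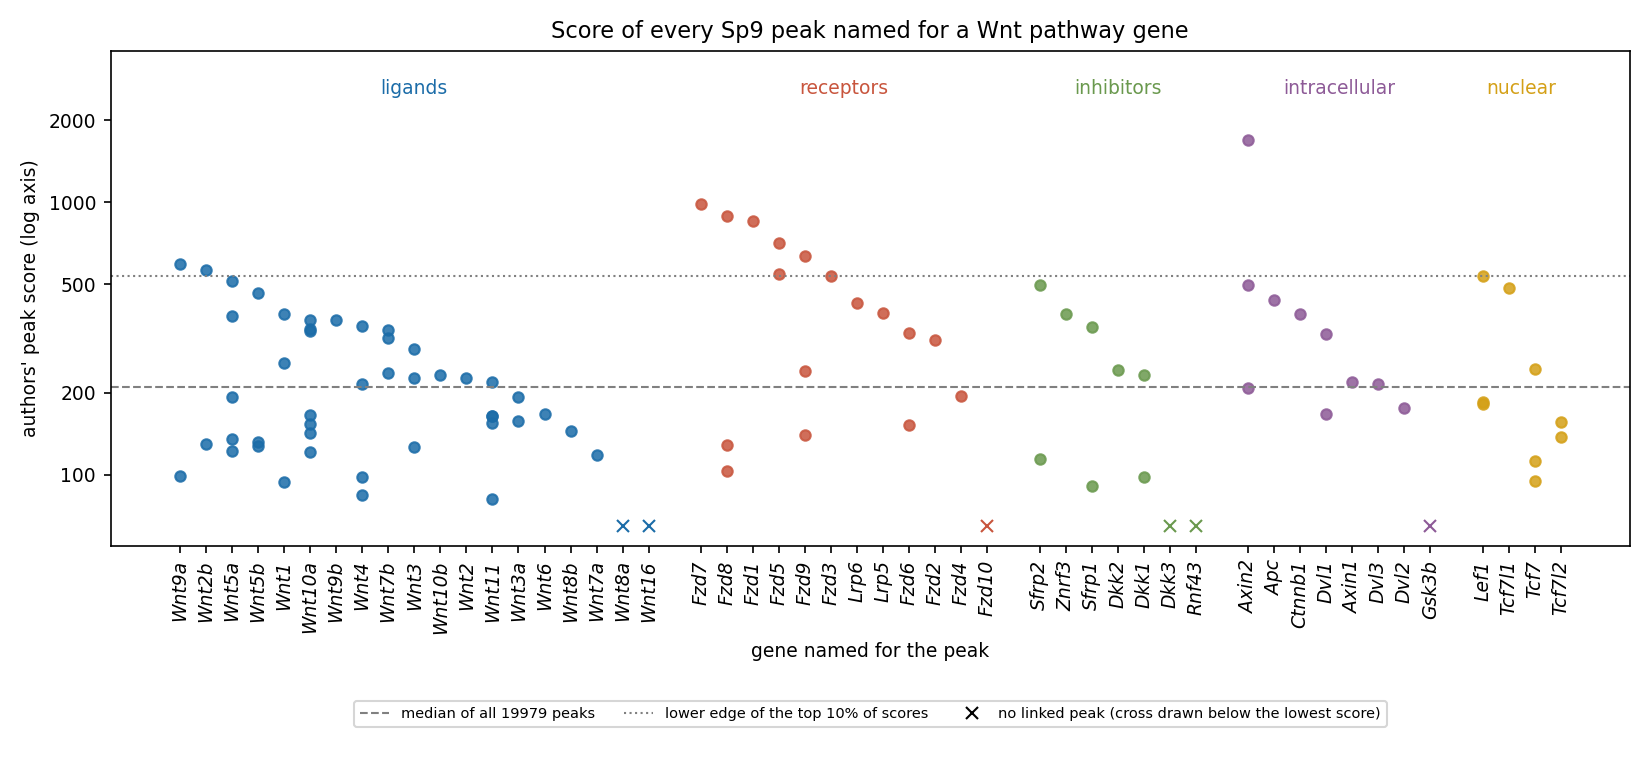
Authors' peak score (log axis) of the 89 peaks named for Wnt pathway genes, with genes on the horizontal axis grouped by role and ordered by their highest score; each dot is a peak and a cross marks a gene without one. The dashed line is the median of the whole list (210.06) and the dotted line the lower edge of its top 10% (536.03). Of 10 Frizzled genes 6, and of 19 ligands 2, have a peak above the dotted line, as do 7.61% of all coding genes.

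The roles were linked at shares whose intervals all overlapped. Over all coding genes 53.2% were linked. That share lay inside the intervals of inhibitors, intracellular components and nuclear factors, and below those of ligands and receptors. Ligands were linked in 17 of 19 cases (89.5%, interval 66.9 to 98.7%) and receptors in 11 of 12 (91.7%, interval 61.5 to 99.8%). Inhibitors were linked in 5 of 7 (71.4%, interval 29.0 to 96.3%), intracellular components in 7 of 8 (87.5%, interval 47.3 to 99.7%) and nuclear factors in 4 of 4 (interval from 39.8%). The median of the highest score per linked gene was 538.51 for receptors, 363.82 for nuclear factors, 348.94 for inhibitors, 338.77 for ligands and 329.41 for intracellular components. Receptors had 8 of 12 genes in the upper quartile of scores and ligands had 7 of 19, with 18.5% over all coding genes.

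**Figure D2:**
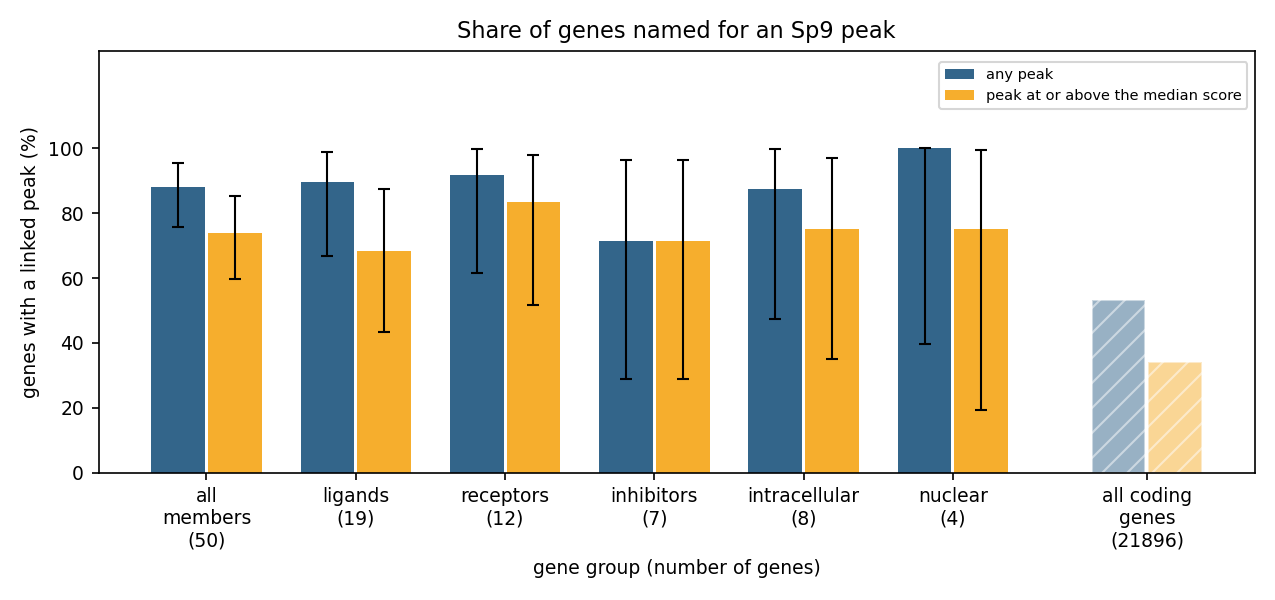
Share of genes (%) with any linked peak (blue) and with a peak at or above the list's median score (yellow), for the 50 members, the 5 roles and, hatched, all 21896 protein-coding genes; error bars are exact 95% intervals over genes. The bars of all members stand at 88% and 74%, those of all coding genes at 53.2% and 34.1%, and the intervals of the roles overlap each other.

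Ligands had many peaks of moderate score. The 19 ligand genes carried 45 of the 89 peaks, or 2.37 per gene, whereas the other 31 members carried 44 peaks, or 1.42 per gene; over all coding genes there was 0.787 per gene. Of the ligands, 8 had 3 or more peaks (Wnt1, Wnt3, Wnt4, Wnt5a, Wnt5b, Wnt7b, Wnt10a and Wnt11), and 5.43% of all coding genes had as many. Of the ligands, 3 had 5 or more peaks (Wnt5a, Wnt10a and Wnt11), against 1.23% of all coding genes. Of the 45 ligand peaks 21, or 46.7%, scored at or above the list's median, and their own median was 193.69. Over all members 13 genes had 3 or more peaks, the other five being Fzd8, Fzd9, Axin2, Lef1 and Tcf7.

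**Figure D3:**
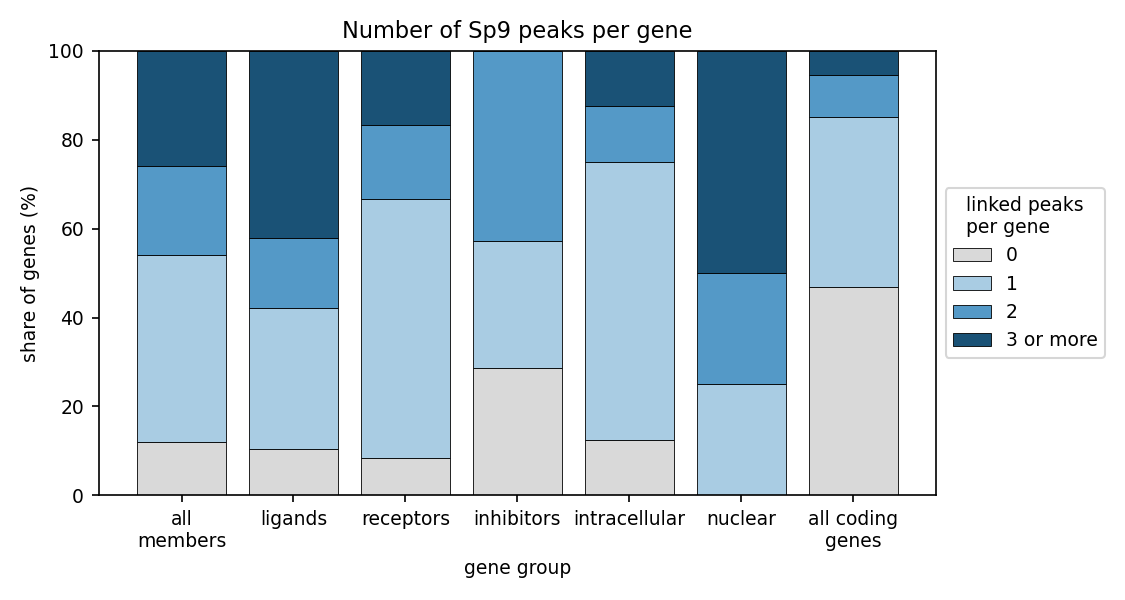
Share of genes (%) with 0, 1, 2 and 3 or more linked peaks, for all 50 members, each role and all protein-coding genes, as stacked bars. The darkest part, genes with 3 or more peaks, is 26% of members, 42.1% of ligands and 5.43% of all coding genes, and inhibitors have none in it.

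Wnt10a, a ligand best known from skin appendages and teeth, had 7 peaks, a number that 0.347% of coding genes reached. Their scores along the chromosome were 153.09, 370.76, 344.23, 121.34, 336.34, 141.89 and 166.08, and they lay within 35.4 kb of chromosome 1, from 74828673 to 74864062. The 3 peaks above the list's median were interspersed with 4 below it. Its neighbour in the genome, Wnt6, a ligand of epithelia, had 1 peak of score 166.88 that lay 9.66 kb before the Wnt10a set. These 8 peaks formed 1 run with no gap over 10 kb, and no other gene name occurred among them. The next peak after them was named for Cdk5r2, an activator of the neuronal kinase Cdk5, and scored 1152.60 at a distance of 36.9 kb.

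Wnt5a, a ligand of the branch independent of beta-catenin that directs cell polarity and migration, had 5 peaks. Their scores were 516.67, 135.93, 193.69, 122.27 and 381.68 along chromosome 14, from 29001549 to 29434444. The highest and the next highest lay at opposite ends of this stretch of 433 kb, and the 3 weaker ones lay between them, separated from each other by 94 bp and 10.9 kb. No peak with another name occurred in the stretch. Wnt5b, the closest relative of Wnt5a, had a peak of 465.01 and a pair of 127.38 and 131.91 about 103 kb away, and a peak named for Fbxl14 (715.66) lay between them. The Wnt5a and Wnt5b sets thus each held a high peak far from a group of weaker ones.

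Wnt9a had the highest score of the ligands, 595.84, on chromosome 11 from 59119841 to 59121927, and another peak of 98.67. Wnt2b, a ligand of the dorsal midline of the forebrain, had peaks of 563.65 and 130.27 on chromosome 3, the higher from 104763857 to 104765665. Both higher peaks were above 91% of the list and both lower ones below its median. Wnt1, the ligand of the midbrain and hindbrain boundary, had 388.20, 256.49 and 94.40, and Wnt4 had 351.50, 215.88, 97.98 and 84.12. Wnt7b, a ligand of cortical neurons, had 338.77, 316.61 and 236.66, so it was the only ligand with 3 or more peaks whose peaks were all above the median. Wnt3 had 290.78, 225.91 and 126.84, and Wnt11, a ligand of convergent extension movements, had 164.68, 219.28, 155.27, 81.27 and 164.72 along the chromosome, of which 1 was above the median.

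The other ligands had 1 or 2 peaks. Wnt9b had a single peak of 369.11, Wnt10b 1 of 232.22 and Wnt2 1 of 227.04, all above the median. Wnt3a, the ligand of the cortical hem, had 193.69 and 158.05, Wnt8b 144.87 and Wnt7a, a ligand of synapse formation, 118.50. These 3 genes and Wnt6 had only peaks below the median. Wnt7a had the lowest highest peak of all 44 linked members, above 21.2% of the list.

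Members that neighbour each other in the genome, whether linked or not, formed 4 pairs, all of ligands. By the gene order of the RefSeq gene table these were Wnt6 with Wnt10a, Wnt3a with Wnt9a, Wnt9b with Wnt3, and Wnt10b with Wnt1. The gaps between the peak sets of the 2 genes were 9.66, 16.7, 22.9 and 12.1 kb in that order. No peak named for another gene lay inside any of the 4 pairs, which spanned 45.9, 67.6, 61.6 and 22.6 kb. Within a pair, the list's single name per peak decides which ligand a peak is counted for, so the split between neighbours is uncertain.

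Receptors had the highest median score of the 5 roles and the widest peaks. Of 10 Frizzled genes, 9 were linked, against 53.2% of all coding genes. Of these 9, 6 had a peak in the top 10% of scores, against 14.3% of linked coding genes. By the usual grouping of Frizzled proteins by sequence, Fzd1, Fzd2 and Fzd7 are close relatives, and their highest scores were 853.59, 311.31 and 982.56. The pair Fzd5 and Fzd8 had 706.90 and 890.22. Fzd9 had 634.87 and Fzd4 194.58, while their relative Fzd10 had no peak. The pair Fzd3 and Fzd6, known for planar polarity and axon guidance, had 538.51 and 332.34. High and low scores thus occurred within the same subfamily, and Fzd5 with Fzd8 was the only subfamily whose members were all in the top 10%.

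Fzd7, a receptor of stem cells and progenitors, had its single peak on chromosome 1 from 59538637 to 59541260, above 98.8% of the list, and no other peak lay within 185.5 kb. Fzd1 was isolated too, with a single peak on chromosome 5 from 4756042 to 4758553 and no other peak within 563 kb. Fzd8 had its high peak on chromosome 18 from 9212107 to 9215217, and weaker ones of 103.17 and 128.31 before it. Fzd5, a receptor of the developing eye and brain, had peaks of 706.90 and 545.36 on chromosome 1 that were separated by 20 bp. Apart from that small gap the Fzd5 sites form a continuous stretch of 3448 bp. Fzd9 had 634.87, 241.07 and 140.18, and Fzd6 had 332.34 and 151.85.

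The co-receptors Lrp5 and Lrp6, which form the signalling complex of the beta-catenin branch, had 1 peak each. Their scores were 391.15 on chromosome 19 from 3685521 to 3686961, and 426.86 on chromosome 6 from 134516323 to 134517804. Both were in the upper quartile, and their widths of 1440 and 1481 bp were close to each other. No second peak was named for either gene.

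The highest peaks of Frizzled genes were wide. Their median width was 2087 bp over 9 genes, against 1078 bp over the highest peaks of all linked coding genes, and 8 of the 9 were 1500 bp or wider, with 17.9% of linked coding genes. Scores and widths rose together over the whole list (Spearman correlation 0.745 over 19979 peaks of the same libraries), so each peak was also set beside the 200 peaks nearest to it in score. The highest peak was wider than the median of those neighbours for 8 of 9 Frizzled genes, and the median ratio over all 9 was 1.28. Those neighbours were peaks of any name, whether or not they were the highest of a gene. Fzd2 was 1.89 times as wide as its neighbours in score, Fzd4 1.70 times and Fzd8, with 3110 bp, 1.57 times. Fzd6, with 0.879, was the exception. The same median ratio was 1.08 for 17 ligands, 1.08 for 5 inhibitors, 1.05 for 7 intracellular components and 1.22 for 4 nuclear factors.

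**Figure D4:**
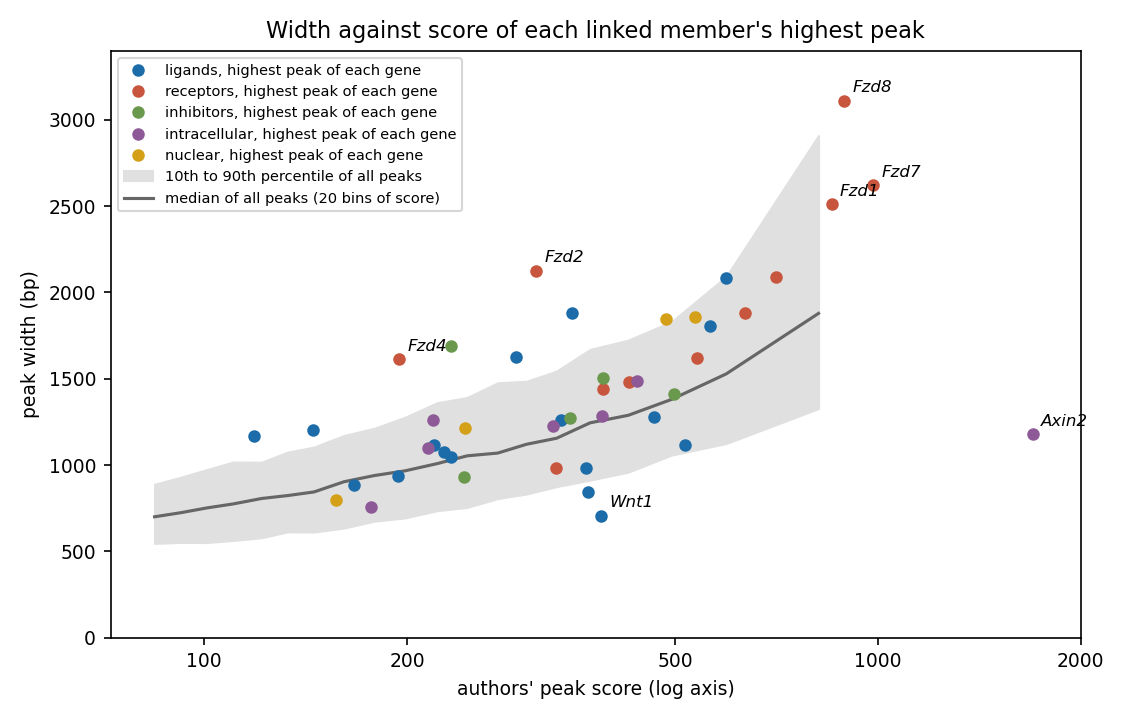
Width (bp) against the authors' score (log axis) of the highest peak of each of the 44 linked members, coloured by role; the grey line and band are the median and the 10th to 90th percentile of width over all peaks in 20 bins of score. Fzd8 (3110 bp), Fzd7 (2623 bp) and Fzd1 (2511 bp) are at the upper right, 9 of the 44 are above the band, whose right edge is used for higher scores (Fzd2, Fzd4, Fzd8, Wnt3, Wnt4, Wnt7a, Wnt8b, Dkk1 and Tcf7l1), and the Axin2 peak of score 1696.89 is only 1180 bp wide.

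Promoter letters are shown for Fzd7, Fzd5 and Fzd1, 3 of the 6 receptors with a peak in the top 10%, for their unlinked relative Fzd10, and for the genes with the highest score among intracellular components and ligands, so that their GC boxes can be compared. Each window is the 250 bases before the annotated start (RefSeq, build GRCm38.p6), 5′ to 3′ on the gene's strand. The peaks are in mm9, so these positions cannot be set against peak positions, and whether a peak covers a promoter was not tested. Capitals mark matches on either strand, which may overlap, to the GC box GGGCGG, to the GT box variant spelled CCACCC, to the homeodomain core TAATTA and to the TCF/LEF core CTTTGA. The windows are chr1:59481897-59482146 (plus strand) for Fzd7, chr1:64737751-64738000 (minus strand) for Fzd5, chr5:4758217-4758466 (minus strand) for Fzd1, chr5:128600856-128601105 (plus strand) for Fzd10, chr11:108920099-108920348 (plus strand) for Axin2 and chr11:59306680-59306929 (plus strand) for Wnt9a.
Fzd7: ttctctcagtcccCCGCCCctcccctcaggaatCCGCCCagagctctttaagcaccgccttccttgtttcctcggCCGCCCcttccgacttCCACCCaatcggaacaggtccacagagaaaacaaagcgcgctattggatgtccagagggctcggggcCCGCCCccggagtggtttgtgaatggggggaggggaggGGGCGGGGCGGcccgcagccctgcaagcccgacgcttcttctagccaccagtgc
Fzd5: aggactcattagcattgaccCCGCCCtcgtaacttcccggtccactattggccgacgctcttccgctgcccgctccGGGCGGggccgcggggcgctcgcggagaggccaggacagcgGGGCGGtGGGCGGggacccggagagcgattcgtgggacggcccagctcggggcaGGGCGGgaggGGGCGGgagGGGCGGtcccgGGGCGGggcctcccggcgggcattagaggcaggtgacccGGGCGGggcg
Fzd1: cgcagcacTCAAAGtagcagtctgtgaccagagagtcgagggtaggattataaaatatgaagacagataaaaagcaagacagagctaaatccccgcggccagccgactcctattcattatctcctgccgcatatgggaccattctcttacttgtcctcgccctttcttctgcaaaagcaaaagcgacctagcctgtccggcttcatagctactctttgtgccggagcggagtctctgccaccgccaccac
Fzd10: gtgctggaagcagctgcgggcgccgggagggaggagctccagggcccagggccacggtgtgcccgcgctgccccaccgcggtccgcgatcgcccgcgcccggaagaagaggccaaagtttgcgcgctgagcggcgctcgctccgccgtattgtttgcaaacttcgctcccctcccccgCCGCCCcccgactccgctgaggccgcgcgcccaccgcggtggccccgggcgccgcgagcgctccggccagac
Axin2: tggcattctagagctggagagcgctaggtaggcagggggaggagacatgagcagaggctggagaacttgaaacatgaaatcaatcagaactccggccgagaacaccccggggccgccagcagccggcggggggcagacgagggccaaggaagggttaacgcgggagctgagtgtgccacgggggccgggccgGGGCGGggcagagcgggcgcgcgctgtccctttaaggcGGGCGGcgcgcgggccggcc
Wnt9a: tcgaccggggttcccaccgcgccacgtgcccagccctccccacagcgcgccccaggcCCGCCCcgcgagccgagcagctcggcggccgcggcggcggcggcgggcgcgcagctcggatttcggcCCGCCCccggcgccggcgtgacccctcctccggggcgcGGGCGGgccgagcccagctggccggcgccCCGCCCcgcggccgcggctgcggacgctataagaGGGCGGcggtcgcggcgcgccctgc

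The number of GC boxes differed widely among these windows. The highest peak of a gene is not known to lie at its window, so whether GC boxes go with the score cannot be told here. The Fzd5 window held 9 GC boxes and the Fzd7 window 6, while the window of Fzd1, whose peak scored 853.59, held none. The Fzd9 window, not printed, held 1, and Fzd8 and Fzd3 were not included. Wnt9a had 5, Axin2 2 and Fzd10, without a peak, 1. Promoter windows were at hand for 35 members, of which 31 were linked. A GC box was in 31 of the 40 windows of linked members (77.5%; some genes have several windows) and in 1 of the 5 windows of members without a peak. The same share was 57.4% over 11775 windows of linked coding genes, 24.2% over 9487 windows of coding genes without a peak, and 32.7% over all 32851 promoters. The variant CCACCC was in 52.5% of windows of linked members, 34.0% of linked coding genes and 28.1% of all promoters. The TCF/LEF core was in 12.5% of windows of linked members and in 13.8% of all promoters, and the homeodomain core in 2.5% and 4.84%. Base composition also differed between these sets. The median GC content of the windows was 70% for linked members and 59.2% for members without a peak. It was 60.8% for linked coding genes and 52.4% for all promoters. The part of base composition in the motif shares was not tested.

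Of the inhibitors, 5 of 7 were linked, each with a peak at or above the median. Over all coding genes 53.2% were linked and 34.1% had a peak at or above the median. Sfrp2, a secreted protein that binds Wnt ligands, had 497.69 on chromosome 3 from 83569677 to 83571089 and a further peak of 114.30. Sfrp1, of the same family, had 348.94 and 90.81. Both Sfrp genes therefore had a high peak with a weak one on the same side, 22.3 and 3.5 kb away. Dkk1, which blocks Lrp5 and Lrp6, had 232.65 and 98.06, and Dkk2 had 243.14. Dkk3, a divergent relative, had no peak. Of the membrane ubiquitin ligases that remove Frizzled receptors from the cell surface, Znrf3 had 1 peak of 390.81, on chromosome 11 from 5344248 to 5345750, and Rnf43 had none.

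Axin2, the scaffold that serves as a general readout of beta-catenin signalling, had the highest peak of all 50 genes. Its score of 1696.89 ranked 41 of 19979, above 99.8% of the list, on chromosome 11 from 108872584 to 108873764. The other Axin2 peaks scored 497.46 and 208.77 and lay before it on the chromosome, the nearer 68.7 kb away. On the far side the next peak was 45.0 kb away and was named for E030025P04Rik, with a score of 106.88. The high peak was narrow for its score, 0.49 times the median width of the 200 peaks nearest in score, whereas the peak of 497.46 was 1.60 times as wide as its own neighbours in score. That wider and weaker peak ran from 108781374 to 108783615.

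The remaining intracellular components had moderate scores. Apc, the tumour suppressor of the destruction complex, had a single peak of 439.28, and Ctnnb1, which encodes beta-catenin, 1 of 389.30, on chromosome 9 from 120841957 to 120843242. Both were in the upper quartile. Axin1, the constitutive scaffold, had 218.86, and Gsk3b, the kinase that marks beta-catenin for destruction, had no peak. Among the Dishevelled genes Dvl1 had 329.41 and 167.26, Dvl3 215.12 and Dvl2 176.57. The Dvl1 peaks stood in a crowded stretch, between peaks named for Mxra8 (161.22) and Tas1r3 (82.94), 4.78 and 5.32 kb away. The Dvl2 peak lay 2.69 kb from a peak named for Phf23 (246.05) and 7.82 kb from another named for Mir324 (83.27).

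All 4 nuclear factors of the Tcf and Lef family, through which beta-catenin acts at DNA, were linked, with 53.2% over all coding genes. The interval of this share of 4 genes, from 39.8%, includes 53.2%. Lef1 had 535.20, just under the top 10%, on chromosome 3 from 130813840 to 130815700, with peaks of 182.24 and 185.13 before it. Tcf7l1, the member that mostly represses, had a single peak of 483.90 on chromosome 6 from 72737911 to 72739759. Both scored above 86% of the list. Tcf7 had 243.74, 112.08 and 94.93, and Tcf7l2 had 156.90 and 137.29. The peaks of Lef1, Tcf7 and Tcf7l2 were compact, within 7.06, 10.2 and 2.13 kb. In Lef1 and in Tcf7l2 a pair of peaks was separated by 7 and 187 bp.

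The feedback genes Axin2, Lef1, Tcf7, Dkk1, Rnf43 and Znrf3 cut across these roles. Of the 6, 5 were linked (interval 35.9 to 99.6%), each with a peak at or above the median, and they carried 12 peaks. Over all coding genes 53.2% were linked, a share inside that interval, and 34.1% had a peak at or above the median. Their highest scores were 1696.89 for Axin2, 535.20 for Lef1, 390.81 for Znrf3, 243.74 for Tcf7 and 232.65 for Dkk1, and Rnf43 had no peak. The median of these highest scores was 390.81, and that of all linked members 360.31.

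Peaks of 1 member often lay close together. Of the 89 peaks, 40 (44.9%) had another peak of the same name within 10 kb, and 20.8% of the 17231 peaks of coding genes did. A gene with a single peak cannot have such a neighbour. Single-peak genes supplied 21 of the 89 member peaks and 8381 of the 17231 peaks of coding genes. The 2 shares therefore also reflect the number of peaks per gene. A peak with another gene's name lay within 10 kb of 7 member peaks (7.87%), and of 10.0% of peaks of coding genes. These 7 belonged to Wnt1 (beside Ddn), Wnt6 and Wnt10a (beside each other), Wnt7b (beside AU022754), Dvl1 (both peaks) and Dvl2. Of 45 gaps between consecutive peaks of a member, 7 were under 1 kb, 17 from 1 to 10 kb, 18 from 10 to 100 kb and 3 longer. The stretch from the first to the last peak had a median of 25.9 kb over the 23 members with 2 or more peaks, and of 34.5 kb over 3265 such coding genes. It was over 50 kb in 7 of those 23 members, against 42.9% of those coding genes. The 7 were Wnt5a (433 kb), Wnt5b (111 kb), Fzd8 (97.8 kb), Dkk1 (95.8 kb), Axin2 (92.4 kb), Wnt11 (73.6 kb) and Wnt7b (58.3 kb).

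**Figure D5:**
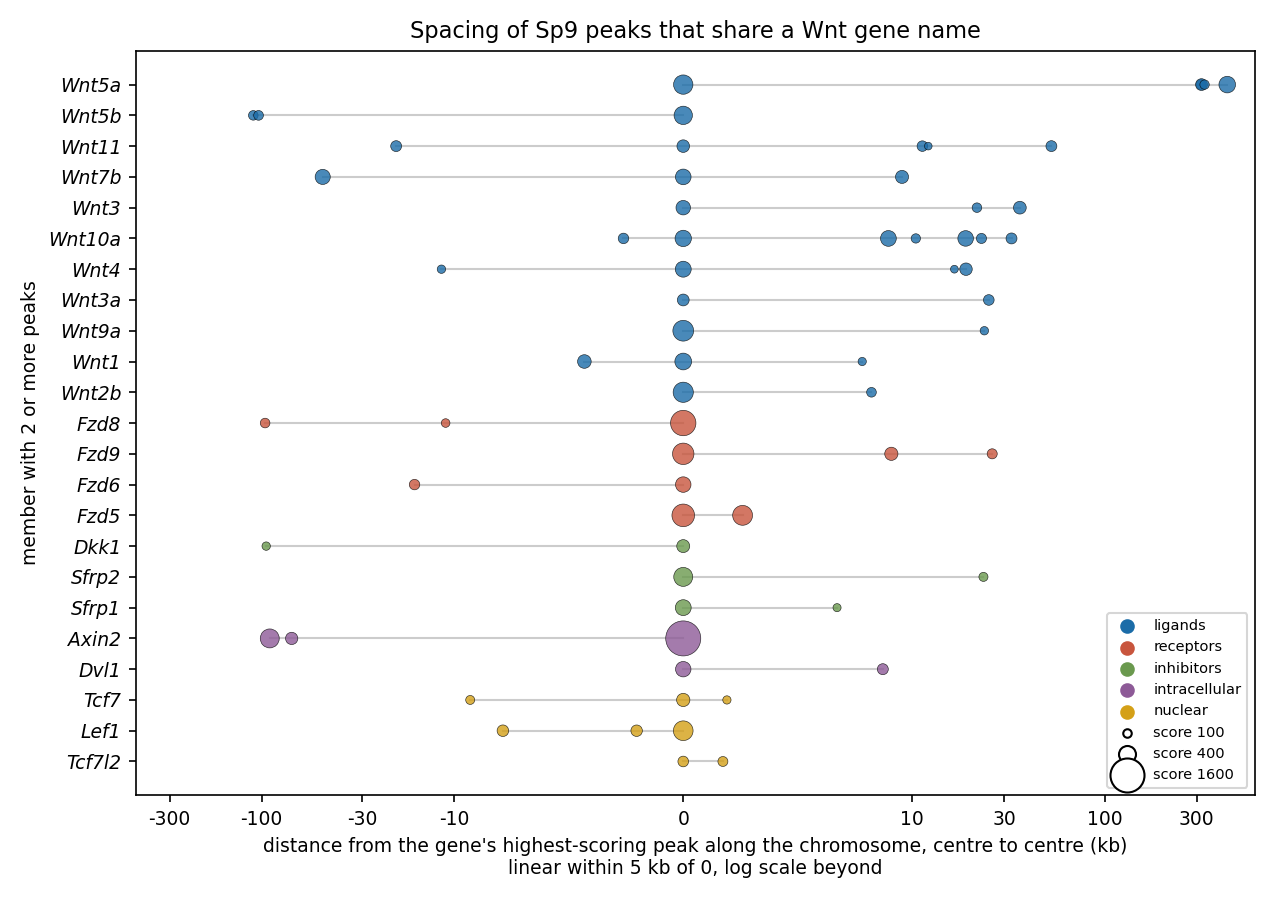
Distance in kb, centre to centre, of each peak from the highest-scoring peak of the same gene, for the 23 members with 2 or more peaks; positive distances point to higher chromosome positions, the axis is linear within 5 kb of 0 and logarithmic beyond, and the dot area grows with the score. Wnt5a reaches farthest (433 kb from first to last peak), Wnt10a has 7 peaks within 35.4 kb, and the highest peak of Axin2 stands apart from the other two.

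The number of peaks and the highest score of a gene are not independent, since a gene with more peaks has more chances of a high one. Among genes with a single peak, the median score was 311.31 for 21 members and 248.72 for 8381 coding genes. Among genes with 2 or more, the median highest score was 370.76 for 23 members and 338.08 for 3269 coding genes. Members stood higher in both classes, but the class of 2 or more does not equalise the number of peaks. In it 13 members had 3 or more peaks and 10 had 2, against 1188 and 2081 coding genes. The part of peak number in that difference was not tested.

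A further 67 genes of the pathway, listed apart from the members, were linked in 58 cases (86.6%, interval 76.0 to 93.7%), against 53.2% of all coding genes. Of the 67, 48 had a peak at or above the median score, against 34.1% of all coding genes. The median highest score was 306.01 over the linked ones and 274.08 over linked coding genes. Cytoplasmic components were linked in 16 of 16 cases, with the ubiquitin ligase subunit Fbxw11 (599.09), casein kinase Csnk1a1 (450.48) and the Dishevelled antagonist Dact1 (430.26) as the highest. Ligand secretion and co-receptor genes were linked in 12 of 13, with the Wnt carrier Wls (589.24), the receptor kinase Ror2 (491.45) and the R-spondin receptor Lgr4 (456.64) as the highest. Porcn, the enzyme that attaches the lipid to Wnt proteins, had no peak.

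Nuclear cofactors were linked in 11 of 13 (interval 54.6 to 98.1%), against 53.2% of all coding genes. Of these 11, 5 had a peak in the top 10%, against 14.3% of linked coding genes. The corepressors Tle1 (991.13), Ctbp2 (842.80) and Tle3 (799.21) were the highest, and Bcl9 and Tle5 had no peak under those symbols. A peak of 114.83 carried an older name that belongs to Tle5. Planar polarity genes were linked in 8 of 10 (interval 44.4 to 97.5%), with no peak for Daam2 and Invs. They were led by the cadherin receptors Celsr1 (1106.64) and Celsr2 (659.54) and by Prickle1 (603.06). Other inhibitors were linked in 8 of 12 (interval 34.9 to 90.1%), and Dkk4, Sfrp4, Kremen1 and Kremen2 had no peak. The highest were Notum (942.47), which removes the lipid from Wnt proteins, Tpbg (598.51) and Sfrp5 (465.06). The intervals of the planar polarity genes and of these inhibitors cover the 53.2% of all coding genes. Of 7 commonly cited targets of the pathway, counting Axin2 and Lef1, all were linked (interval from 59.0%). They were led by Axin2, by Sp5 (736.70), which encodes another Sp factor, and by Lef1. Nkd1, Lgr5, Myc and Ccnd1 had highest scores from 272.02 to 424.53. Inhibitors were the least often linked group among the members as well, with 5 of 7, but differences between groups this small were not tested.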

How the data were processed

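Sp9 chromatin immunoprecipitation of neonatal mouse olfactory bulb gave 2 libraries, with 1 input library as control, per the labels. Bowtie2 2.2.4 (a read aligner), MACS 1.4.2 (a peak caller) and build mm9 appear in the submitters' processing notes without roles or settings. The single deposited table lists shared peaks with a position, a peak score made by the authors and a gene name. The sources used here state neither its score formula, sharing rule, read depth and gene linking rule nor whether starts count from 0 or 1. The deposited positions are kept in mm9 and were not converted.

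Members were matched by exact symbol. The background was the 21896 protein-coding symbols of a RefSeq gene table (assembly GRCm38.p6), which served for names and gene order only; 11650 of them equal a name in the list. Counts were made with Python 3.11.15, pandas 2.3.3 and SciPy 1.17.1, and checked on a small simulated list. Members and lists were chosen with earlier results of these data known, so no test, set test or adjusted p is given. All 50 members are accounted for, with full values for those with 3 or more peaks, a peak in the top 10% of scores, or the 3 highest scores of a role. Dense runs are 5 or more peaks with gaps under 10 kb. Alternatives changed score and width filters, name matching, background, peak merging and role assignment.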

Additional observations from a re-analysis of the deposited data

How the results depend on the processing

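No paired analysis was possible because peak scores are not given library by library, and for the same reason neither immunoprecipitation could be left out. Linking peaks to a neighbouring gene by distance was not run, because no mm9 annotation was used here. The number of linked members was 44 as deposited and with synonyms (55.4% of coding genes then), 37 at or above the median score, 40 without dense runs and unplaced sequence (51.5% of coding genes left; Dvl1, Wnt1, Wnt6 and Wnt10a lost), 31 without peaks wider than the upper quartile of width (41.8% of coding genes left; 13 members lost, 6 of them Frizzled genes) and 22 in the upper quartile of scores. Restricting scores to the upper quartile also lowered the linked shares to 36.8% of ligands, 28.6% of inhibitors and 37.5% of intracellular components. At that cut 66.7% of receptors, 50% of nuclear factors and 18.5% of all coding genes were linked. The background share was 25.6% over all gene names of the table and 56.3% over coding genes outside the olfactory, vomeronasal and trace amine receptors. Peaks per member gene were 1.78 as deposited (0.787 per coding gene). They were 1.64 and 1.48 after merging gaps under 1 and 5 kb (0.757 and 0.716 per coding gene). Without dense runs and unplaced sequence they were 1.52 (0.745), and at or above the median score 0.96 (0.402 per coding gene). The median linked member's highest peak lay above 75.8% of the list, and above 67.0% by score divided by width; the median over all 89 member peaks was 52.0%. Of 26 alternatives 18 stayed within the counting interval or 1.5 times the count, and 8 moved outside it. With the depth unknown, the absence of a peak does not show that a gene was unbound.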
